A study of Mus musculus with 12 samples.

Results

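The lysosome genes described here are 42 named genes that encode lysosomal hydrolases, lysosomal membrane proteins, subunits of the proton pump and the transcription factor Tfeb, taken by symbol from the 54532 genes of the count table. All 42 were found and all 42 passed the filter on low counts, among 15715 genes that did. They were read in 12 RNA sequencing libraries, 3 per group, of gastrocnemius, a calf muscle. The mice were C57BL/6, wild type in genotype and 6 to 7 months old. Needling muscle received bupivacaine, a local anaesthetic toxic to muscle fibres, and acupuncture 24 hours after it. Injury muscle received bupivacaine, saline muscle a saline injection, and naive muscle was the naive control, which the sample titles call WT. No group carried an allele or a transgene. The labels do not say that the 3 samples of a group came from separate animals, so p-values cover only the spread among the samples, part or all of which may be technical. The rule sets 4 members apart as macrophage-type, namely Atp6v0d2, Ctsk, Acp5 and Cd68. The other 38 are called ubiquitous here, and they include genes known mainly from blood-derived cells, such as Laptm5. Atp6v0d2 passed the filter on low counts only through its reads in needling and injury libraries.

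The lysosome is the acid compartment in which cells break down proteins, glycans, lipids and taken-up debris. A proton pump, the V-ATPase, acidifies it, and heavily glycosylated membrane proteins line it. Macrophages and osteoclasts, which digest large loads, are known for high levels of some lysosomal proteins. In human cells TFEB was described as a factor that binds a palindrome with the core CACGTG in the promoters of many lysosomal genes. In damaged muscle, macrophages clear dead fibres, and fibres themselves use lysosomes for autophagy.

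Total gene counts per library ranged from 16385233 to 27155738, and mitochondrially encoded genes took 7.12% to 9.37% of them in needling, 8.74% to 11.7% in injury, 8.85% to 10.7% in saline and 11.6% to 13.5% in naive libraries. The needling libraries thus all lay below the naive ones in this share, whose part in the results was not tested. The labelled tissue was checked on fast fibre genes, with Myh4, a fast myosin heavy chain, averaging 27012 CPM (counts scaled to library depth by TMM) in needling, 32524 in injury, 44512 in saline and 48976 in naive muscle. A list of 10 macrophage marker genes (Adgre1, Csf1r, Cd14, Fcgr1, Mertk, Lyz2, C1qa, C1qb, C1qc and Itgam, none of them a member) summed to 1673 to 2322 CPM in needling, 725 to 1165 in injury, 184 to 425 in saline and 89.2 to 180.3 in naive libraries. Within their groups, needling replicate 3, injury replicate 3 and saline replicate 1 held the lowest of these sums. Fibroblast markers (Pdgfra, Dcn, Col1a1, Col3a1 and Lum) summed to 2264 to 3001 CPM in needling, 1443 to 1782 in injury, 944 to 1225 in saline and 587 to 797 in naive libraries. The collagen genes made up most of the needling sum, Col3a1 averaging 1294 CPM in needling and 178 in naive muscle, and Col1a1 735 and 78.6. Pdgfra averaged 47.8 and 27.1, and Lum 53.6 and 29.7. Dcn ran otherwise, with 391 in needling, 435 in injury, 483 in saline and 348 in naive muscle. The fast fibre markers ran the other way, averaging 80659 CPM in needling and 140546 in naive muscle. Neutrophil markers summed to no more than 4.63 CPM and lymphocyte markers to no more than 2.29 CPM in any library, and the neutrophil gene Ly6g was at 0 in all needling, injury and saline libraries. In bulk muscle, fewer cells of a type and less RNA per cell cannot be told apart, nor can more of either.

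Where palindromes stand in members' promoters is shown first. The core CACGTG was described in promoters of lysosomal genes, as said above. A higher share among members chosen as lysosome genes is thus a description and no independent result. A window from 250 bases before to 50 bases after the RefSeq start (build GRCm38.p6) was at hand for 36 of the 42 members. CACGTG, which reads the same on both strands, stood in 13 of the 36 windows (36.1%) and in 2187 of 27025 genes with a window (8.09%). The longer TCACGTGA, also the same on both strands and containing the first, stood in 6 of 36 (16.7%) and in 304 of all genes (1.12%). With a G before it and a C after it, TCACGTGA stood in none of the 36 and in 100 genes (0.37%). The promoters of Ctsd (chr7:142387778-142388077, minus strand), which encodes an aspartic protease, and of Atp6v1a (chr16:44139210-44139509, minus strand), the catalytic subunit of the pump, are printed in whole as examples of a hydrolase and a pump gene, with TCACGTGA in capitals. In Ctsd the palindrome begins 99 bases before the start, and in Atp6v1a 132 bases before it.
Ctsd: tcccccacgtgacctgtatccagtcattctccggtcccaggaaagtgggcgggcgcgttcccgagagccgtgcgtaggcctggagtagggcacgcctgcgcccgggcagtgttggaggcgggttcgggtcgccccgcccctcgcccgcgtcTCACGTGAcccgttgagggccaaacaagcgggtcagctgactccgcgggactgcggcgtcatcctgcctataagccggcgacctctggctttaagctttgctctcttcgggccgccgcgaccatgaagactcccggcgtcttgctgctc
Atp6v1a: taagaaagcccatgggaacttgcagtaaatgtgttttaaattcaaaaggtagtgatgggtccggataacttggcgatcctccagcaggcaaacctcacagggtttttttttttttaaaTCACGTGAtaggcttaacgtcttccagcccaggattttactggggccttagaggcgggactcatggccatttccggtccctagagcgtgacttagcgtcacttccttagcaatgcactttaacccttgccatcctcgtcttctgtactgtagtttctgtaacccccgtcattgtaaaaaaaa
The other 4 genes with TCACGTGA are shown by the site and its flanks. Their windows are Mcoln1 (chr8:3500269-3500568, plus strand), Atp6v0d1 (chr8:105566015-105566314, minus strand), Ctsa (chr2:164833523-164833822, plus strand) and Gla (chrX:134600956-134601255, minus strand), the last 2 with a pair of sites each, of which the one farther upstream is printed.
Mcoln1: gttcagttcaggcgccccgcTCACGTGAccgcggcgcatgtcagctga
Atp6v0d1: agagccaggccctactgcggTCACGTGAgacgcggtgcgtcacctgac
Ctsa: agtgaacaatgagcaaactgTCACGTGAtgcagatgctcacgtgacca
Gla: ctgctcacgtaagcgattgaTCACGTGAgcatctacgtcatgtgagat
These 6 genes did not share 1 pattern of expression. Gla and Atp6v1a were called higher in injury than in saline muscle, Ctsa and Ctsd in injury than in naive muscle, Atp6v0d1 in needling muscle against saline and against naive muscle, and Mcoln1 in no comparison. Among the macrophage-type members, Ctsk, Acp5 and Cd68 had windows without CACGTG, and Atp6v0d2 had none in the table. A match is a description of these letters and not of a bound site.

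Each pair of groups was compared with edgeR's quasi-likelihood test in 1 fit of all 12 libraries, and a gene was called where its Benjamini-Hochberg adjusted p over all 15715 genes was under 0.05. In needling against naive muscle 31 members rose and 1, Tfeb, fell, where 22.9% of all genes rose and 18.8% fell. In needling against saline muscle 31 rose and 1, Npc1, fell, with 18.2% of all genes higher and 10.8% lower. In injury against naive muscle 27 rose and none fell, where 12.1% of all genes rose and 5.41% fell. In injury against saline muscle 17 rose and none fell, where 3.96% of all genes rose and 0.07% fell. No member was called in needling against injury or in saline against naive muscle, where 0% of all genes were called. These comparisons share groups and are not independent of one another. The counts by role given below are to be read beside these same shares of all genes.

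The members' median log2 fold change was 1.34 in needling against naive, 1.07 in needling against saline, 0.78 in injury against naive, 0.52 in injury against saline, 0.53 in needling against injury and 0.21 in saline against naive muscle, while the median over all genes tested lay between -0.04 and 0.01. Group means were ordered naive, saline, injury, needling from low to high in 31 of the 42 members (73.8%) and in 22.7% of all genes tested. They had the opposite order in Tfeb alone among the members (2.38%), and in 22.6% of all genes. The 17 members called in injury against saline were called in needling against saline and in both bupivacaine groups against naive muscle as well. Another 10 (Acp5, Ctsa, Ctsc, Ctsd, Ctsk, Lamp2, Man2b1, Naglu, Ppt1 and Psap) were called in those 3 but not in injury against saline. In no comparison were Atp6ap1, Atp6v1b2, Ctsf, Gaa, Lamp1, Mcoln1, Scarb2 or Tpp1 called.

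**Figure D1:**
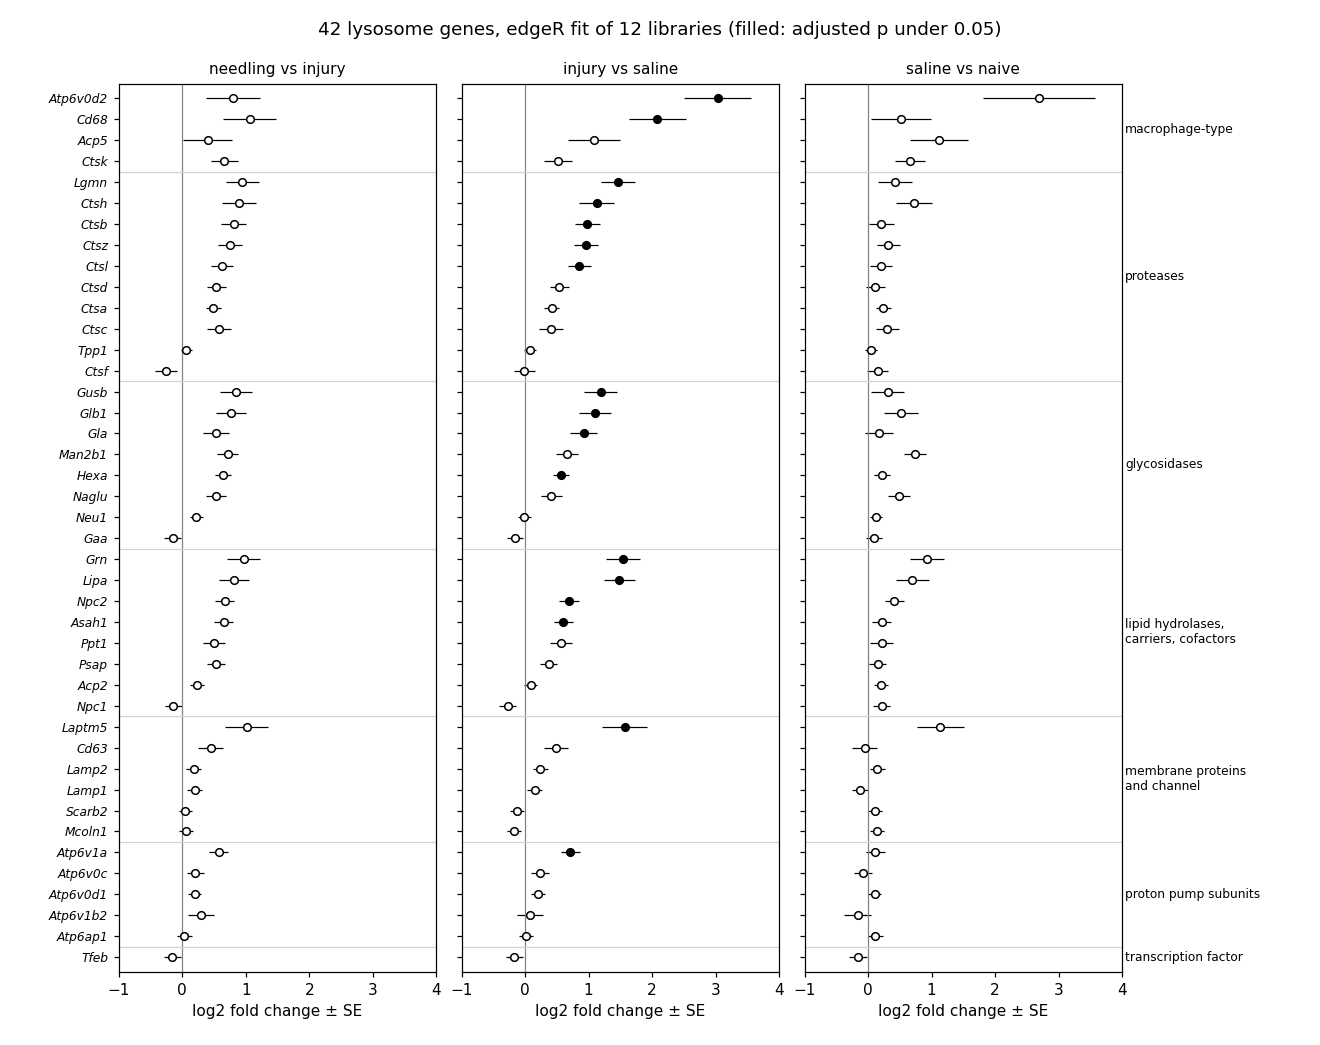
Log2 fold changes (edgeR, 12-library fit) of the 42 members, grouped by role, in needling against injury, injury against saline and saline against naive muscle; bars are 1 standard error and filled points have an adjusted p under 0.05. Filled points appear in injury against saline alone, 17 of them, and all lie right of 0.

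The macrophage-type members differed across the groups by more, at the median, than the ubiquitous ones. Their log2 fold changes had a median of 3.13 in needling against naive, 2.31 in needling against saline, 2.40 in injury against naive and 1.58 in injury against saline muscle. For the ubiquitous members those medians were 1.23, 0.96, 0.68 and 0.45, in the same order. Single genes of both kinds overlapped. In needling against naive muscle the highest log2 fold change of a ubiquitous member was 3.72, and the lowest of a macrophage-type member 1.84. All 4 rose in needling against saline, in injury against naive and in needling against naive muscle, and Atp6v0d2 and Cd68 rose in injury against saline muscle. Summed, the 4 genes averaged 129 CPM in needling, 68.4 in injury, 22.5 in saline and 14.0 in naive muscle, with Cd68 the largest part in each group.

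Cd68 (chromosome 11, 69664213 to 69666153, minus strand, GENCODE M21 on mm10, ENSMUSG00000018774) encodes macrosialin, a glycoprotein of macrophage endosomes and lysosomes related to the LAMP proteins. It stood at 91.4, 110.2 and 62.6 CPM in needling, 46.3, 55.1 and 25.5 in injury, 6.67, 9.66 and 13.4 in saline and 10.9, 3.04 and 7.09 in naive libraries. Every needling library was above every injury library and every injury library above every saline library, while saline and naive overlapped. The log2 fold change was 2.08 ± 0.45 (SE) in injury against saline (adjusted p = 0.0362) and 3.66 ± 0.48 in needling against naive muscle (adjusted p = 0.000274). The lowest needling and injury values are those of replicate 3, the libraries with the lowest macrophage marker sums of those groups.

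Atp6v0d2 (chromosome 4, 19876841 to 19922605, minus strand, ENSMUSG00000028238) encodes the d2 form of a subunit that joins the membrane and cytosolic sectors of the V-ATPase, known from osteoclasts and macrophages. It stood at 14.3, 15.1 and 7.41 CPM in needling, 8.27, 7.68 and 5.30 in injury, 0.128, 1.07 and 1.30 in saline and 0.125, 0 and 0.255 in naive libraries. Needling overlapped injury, injury lay wholly above saline, and saline overlapped naive. It rose by a log2 fold change of 3.03 ± 0.53 in injury against saline muscle (adjusted p = 0.0165), a size that rests on 2, 19 and 26 reads in the saline libraries and was 1.47 on the log2(FPKM + 1) scale. Naive libraries held 2, 0 and 5 reads, so the rises against naive (adjusted p = 3.00e-05 for needling and 0.000449 for injury) are given without a fold. The gene passed the filter on low counts only through the bupivacaine libraries, where it was high. In a fit of saline and naive libraries alone, 41 members were tested. Its calls against saline and naive muscle, and its part in the class medians and the d2 balance, are thus a description.

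Ctsk (chromosome 3, 95499256 to 95509362, plus strand, ENSMUSG00000028111) encodes cathepsin K, the collagen-degrading protease of osteoclasts. It stood at 18.6, 23.2 and 16.7 CPM in needling, 12.8, 11.9 and 12.3 in injury, 6.22, 11.4 and 8.23 in saline and 4.19, 4.80 and 7.25 in naive libraries. The injury libraries lay close together and just above the highest saline library. The log2 fold change was 1.84 ± 0.23 in needling against naive (adjusted p = 5.60e-05), 1.18 ± 0.23 in injury against naive (adjusted p = 0.00397) and 0.51 ± 0.22 in injury against saline muscle (adjusted p = 0.286).

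Acp5 (chromosome 9, 22126727 to 22135711, minus strand, ENSMUSG00000001348) encodes tartrate-resistant acid phosphatase, a marker enzyme of osteoclasts and activated macrophages. It stood at 7.98, 12.5 and 5.82 CPM in needling, 8.52, 6.79 and 4.76 in injury, 3.66, 3.65 and 2.21 in saline and 0.625, 2.56 and 1.12 in naive libraries. Needling and injury overlapped, and both lay above all saline and naive libraries. The log2 fold change was 2.59 ± 0.44 in needling against naive muscle (adjusted p = 0.000688) and 2.20 ± 0.44 in injury against naive muscle (adjusted p = 0.00568). Without naive replicate 2, which held the highest naive value, these were 3.31 and 2.94, and on the log2(FPKM + 1) scale 1.63 and 1.34. Its call in needling against saline muscle (1.48 ± 0.41, adjusted p = 0.0197) was lost without needling replicate 2 (adjusted p = 0.0911) or saline replicate 3 (adjusted p = 0.0758).

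**Figure D2:**
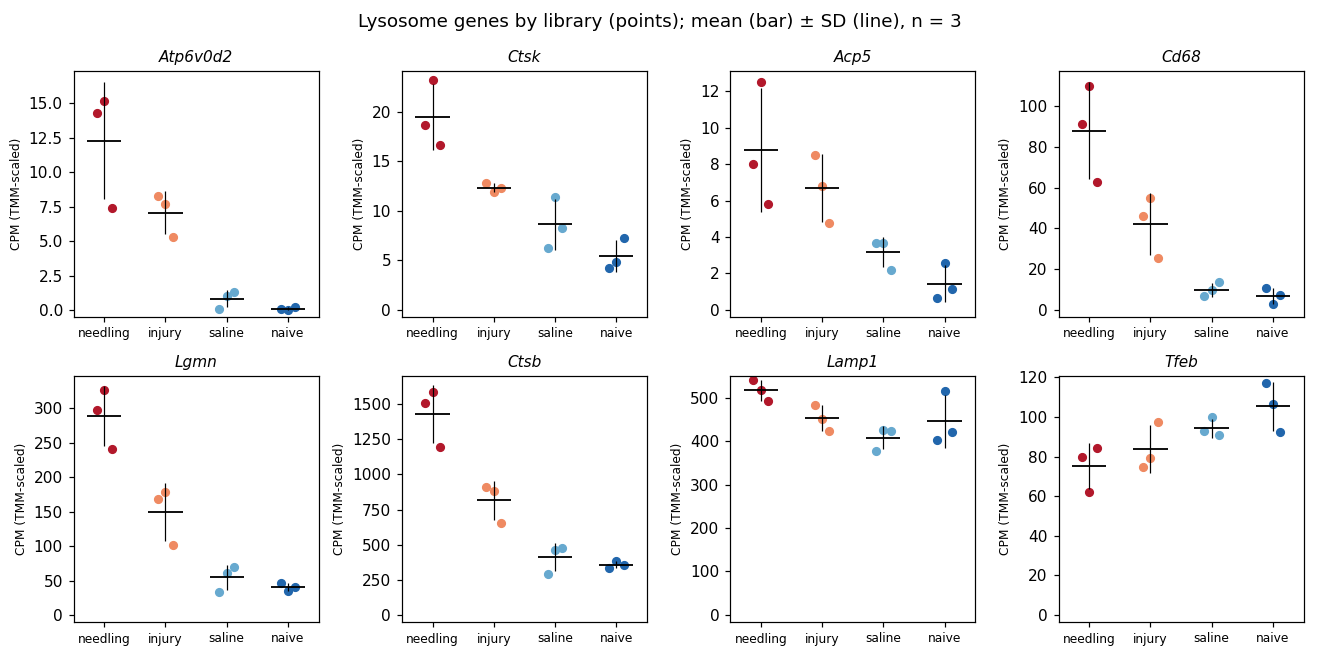
Levels in CPM (linear axes that include 0) of Atp6v0d2, Ctsk, Acp5, Cd68, Lgmn, Ctsb, Lamp1 and Tfeb by group; points are the 3 libraries of a group, the bar their mean and the line 1 SD either way. In Cd68, the 3 needling libraries lie between 62.6 and 110.2 CPM and the 3 naive libraries between 3.04 and 10.9 CPM.

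A list of 6 markers of osteoclasts and fused macrophages was read beside these members. Dcstamp, needed for macrophage fusion, averaged 0.351 CPM in needling, 0.152 in injury, 0.0542 in saline and 0.0594 in naive muscle. Of the 6 (Dcstamp, Ocstamp, Calcr, Oscar, Nfatc1 and Mmp9), 4 passed the filter, of which none was called in needling against saline or in injury against saline and 1, Ocstamp, in needling against naive muscle, with means of 0.693 CPM in needling and 0.114 CPM in naive muscle. Summed, the 6 lay between 44.6 and 65.5 CPM in all 12 libraries, most of it Nfatc1, a transcription factor not limited to these cells, which averaged 45.7 CPM in needling, 51.7 in injury, 55.5 in saline and 49.6 in naive muscle. Of the 10 macrophage markers, all 10 rose in needling against naive, in injury against naive and in needling against saline muscle, and 4 in injury against saline muscle. Their sum was 14.9 times as high in needling as in naive muscle, against 9.19 times for the macrophage-type and 2.06 times for the ubiquitous members. These sums lean on their highest genes and do not describe each gene of a class. In needling muscle Lyz2 averaged 1278 of 2050 CPM of the marker sum, Cd68 88.1 of 129 CPM of the macrophage-type sum and Psap 2128 of 8711 CPM of the ubiquitous sum. The part of macrophage number in the members' levels was not tested.

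**Figure D3:**
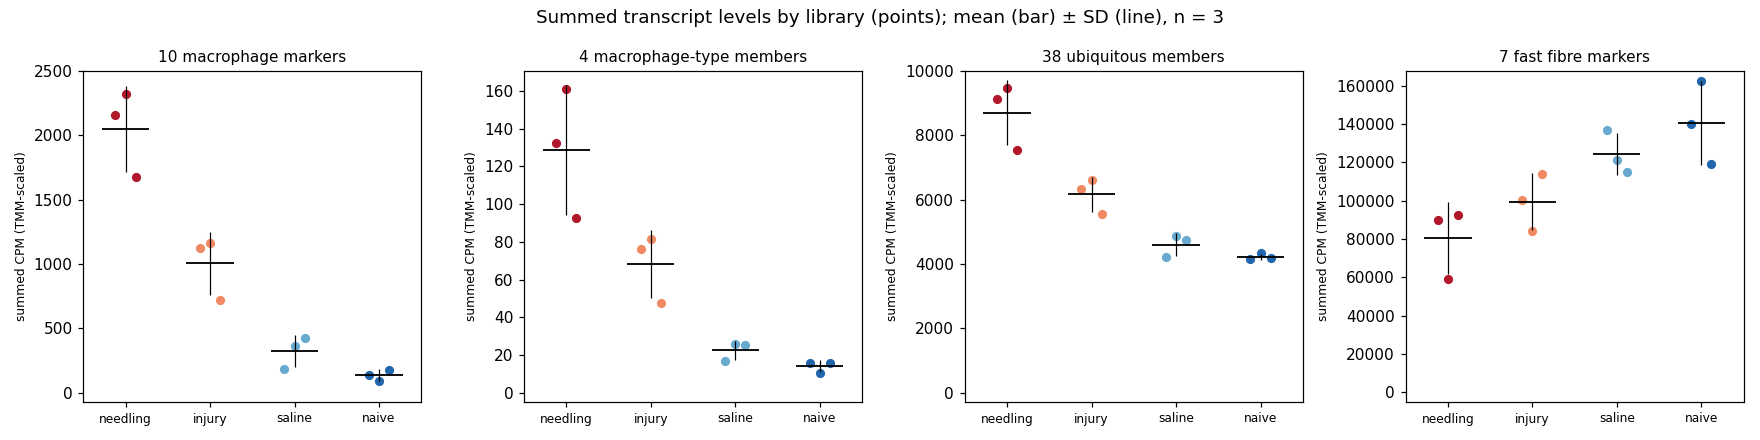
Summed CPM of the 10 macrophage markers, the 4 macrophage-type members, the 38 ubiquitous members and 7 fast fibre markers by group (linear axes that include 0); points are libraries, the bar the mean of 3 and the line 1 SD either way. The macrophage-type sum lies between 92.5 and 161 CPM in needling and between 10.4 and 15.9 CPM in naive libraries, and the ubiquitous sum between 7549 and 9462 and between 4151 and 4339 CPM.

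The gap between both kinds of member can be read within each library, as the mean log2 CPM of the 4 macrophage-type genes minus that of the 38 ubiquitous genes. It was -2.31, -2.11 and -2.64 in needling, -2.42, -2.58 and -2.82 in injury, -3.83, -3.45 and -3.58 in saline and -4.21, -4.25 and -4.08 in naive libraries. Both bupivacaine groups lay above saline, and saline above naive, with needling and injury overlapping. The values are a description, since the members were chosen with results of these data known.

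The d subunit of the pump exists as a ubiquitous form, Atp6v0d1, and the d2 form, so their balance could be read per length. Atp6v0d2 made up 17.6%, 16.4% and 10.2% of their summed FPKM (read fragments scaled by gene length and library depth) in needling, 12.01%, 10.5% and 8.48% in injury, 0.241%, 2.04% and 2.29% in saline and 0.224%, 0% and 0.584% in naive libraries. The log2 ratio of d2 to d1 was 3.43 higher in injury than in saline muscle, with an exact 2-sided permutation p of 0.1, the smallest that 3 against 3 allows. Without saline replicate 1, which held 2 reads of Atp6v0d2, the difference was 2.36, a leave-out chosen after seeing the data. It was 0.56 higher in needling than in injury muscle (exact permutation p = 0.3), and over the 5 ratios tested the smallest adjusted p was 0.375. The ratio of Ctsk to Ctsl, a cathepsin of most cells, differed by -0.30 between injury and saline muscle (exact permutation p = 0.3) and by 0.04 between needling and injury muscle (exact permutation p = 0.8).

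Of the 10 proteases, 8 rose in needling against naive, in needling against saline and in injury against naive muscle, and 5 (Ctsb, Ctsh, Ctsl, Ctsz and Lgmn) in injury against saline muscle. Lgmn, which encodes legumain, the asparaginyl endopeptidase that also matures cathepsins, stood at 298, 326 and 241 CPM in needling, 168, 179 and 102 in injury, 33.5, 60.4 and 69.6 in saline and 46.1, 34.6 and 40.7 in naive libraries. The lowest injury library was still above the highest saline library. Its log2 fold change was 1.46 ± 0.27 in injury against saline muscle (adjusted p = 0.0194) and 2.83 ± 0.28 in needling against naive muscle (adjusted p = 2.0e-05). Saline replicate 1, at 33.5 CPM, lay below every naive library.

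Ctsb, a cysteine protease found in nearly all cells, ranked 3 of the 42 members by FPKM in needling muscle, after Psap and Ctsd. It stood at 1506, 1583 and 1195 CPM in needling, 911, 883 and 655 in injury, 296, 467 and 479 in saline and 332, 385 and 357 in naive libraries. The groups separated in the same places as for Lgmn. Its log2 fold change was 0.98 ± 0.19 in injury against saline (adjusted p = 0.0203) and 1.995 ± 0.20 in needling against naive muscle (adjusted p = 1.34e-05). Ctsz, a carboxypeptidase known from myeloid cells, stood at 165, 198 and 125 CPM in needling, 95.6, 119 and 75.5 in injury, 47.4, 50.2 and 51.6 in saline and 43.9, 32.9 and 42.7 in naive libraries, and its log2 fold change was 0.96 ± 0.19 in injury against saline muscle (adjusted p = 0.0195). Of the other proteases, Ctsd, Ctsa and Ctsc were higher in all injury than in all saline libraries but were not called there, with log2 fold changes of 0.54, 0.42 and 0.41. Ctsf and Tpp1 differed little, with log2 fold changes of -0.12 and 0.19 in needling against naive muscle, neither called.

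Of the 8 glycosidases, which remove sugars from glycolipids, glycoproteins and glycogen, 7 rose in needling against naive muscle, 6 in needling against saline and in injury against naive, and 4 (Gusb, Glb1, Gla and Hexa) in injury against saline muscle. Gusb, which encodes beta-glucuronidase, stood at 67.3, 82.3 and 49.7 CPM in needling, 39.2, 43.7 and 27.8 in injury, 11.9, 14.8 and 21.7 in saline and 16.1, 10.9 and 12.2 in naive libraries. The injury libraries lay above all saline libraries by a log2 fold change of 1.19 ± 0.26 (adjusted p = 0.0296). Hexa, the alpha subunit of beta-hexosaminidase, stood at 164, 162 and 124 CPM in needling, 97.9, 105 and 86.04 in injury, 62.0, 70.1 and 62.8 in saline and 60.3, 55.8 and 52.0 in naive libraries. No 2 of the needling, injury and saline groups overlapped, and its log2 fold change was 0.57 ± 0.12 in injury against saline (adjusted p = 0.0263) and 1.42 ± 0.13 in needling against naive muscle (adjusted p = 8.10e-06).

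Glb1, the lysosomal beta-galactosidase, had 15.6, 17.3 and 12.97 CPM in needling, 9.63, 9.81 and 7.43 in injury, 2.44, 4.997 and 4.97 in saline and 2.19, 2.88 and 3.57 in naive libraries. Its log2 fold change was 1.10 ± 0.25 in injury against saline (adjusted p = 0.0302) and 2.40 ± 0.26 in needling against naive muscle (adjusted p = 2.03e-05), the last being 1.64 on the log2(FPKM + 1) scale. Gaa, the glycogen-digesting acid alpha-glucosidase, was called in no comparison. It had 306, 321 and 325 CPM in needling, 283, 388 and 387 in injury, 408, 403 and 373 in saline and 356, 391 and 359 in naive libraries. All needling libraries lay below all saline and all naive libraries, but the log2 fold changes of -0.31 ± 0.13 against saline (adjusted p = 0.0848) and -0.22 ± 0.13 against naive (adjusted p = 0.201) were not called.

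Among the 8 lipid hydrolases, lipid carriers, acid phosphatase and cofactors, 7 rose in needling against naive and in needling against saline muscle, 6 in injury against naive, and 4 (Grn, Lipa, Npc2 and Asah1) in injury against saline muscle. Grn, which encodes progranulin, a secreted protein processed to granulins in the lysosome, stood at 281, 298 and 219 CPM in needling, 147, 155 and 107 in injury, 30.9, 48.6 and 60.9 in saline and 22.0, 18.7 and 33.0 in naive libraries. Needling, injury and saline did not overlap one another, while saline replicate 1 fell among the naive libraries. Its log2 fold change was 1.54 ± 0.27 in injury against saline (adjusted p = 0.0161) and 3.43 ± 0.29 in needling against naive muscle (adjusted p = 9.68e-06).

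Lipa, the lysosomal acid lipase that frees cholesterol from its esters, stood at 52.8, 69.2 and 48.9 CPM in needling, 40.8, 32.7 and 23.5 in injury, 8.02, 12.4 and 14.1 in saline and 6.44, 6.08 and 8.78 in naive libraries. Its adjusted p of 0.0151 in injury against saline muscle was the smallest of any member there, with a log2 fold change of 1.49 ± 0.24. The 2 proteins that pass cholesterol out of the lysosome differed in direction. Npc2, the soluble carrier, stood at 146, 173 and 121 CPM in needling, 99.0, 101 and 76.5 in injury, 49.3, 59.7 and 62.0 in saline and 39.2, 42.1 and 47.2 in naive libraries, all 4 groups lying apart. Npc1, the membrane transporter, stood at 95.7, 97.5 and 87.0 CPM in needling, 83.6, 116 and 109.8 in injury, 140.2, 125 and 109.8 in saline and 114, 109 and 101 in naive libraries. Against saline muscle, needling muscle had a log2 fold change of 1.36 ± 0.15 for Npc2 (adjusted p = 0.000121) and of -0.42 ± 0.13 for Npc1 (adjusted p = 0.0313). The call of Npc1 was lost when any needling library, saline replicate 1 or saline replicate 2 was left out (log2 fold changes of -0.33 to -0.45, adjusted p of 0.0639 to 0.116). Against naive muscle Npc1 was not called, at -0.21 ± 0.13 (adjusted p = 0.233).

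Of the 6 membrane proteins, 3 (Laptm5, Cd63 and Lamp2) rose in needling against naive and in needling against saline muscle, 2 in injury against naive and 1, Laptm5, in injury against saline muscle. Laptm5, a membrane protein found mainly in blood-derived cells, stood at 115, 128 and 95.6 CPM in needling, 60.5, 65.0 and 42.1 in injury, 8.66, 20.6 and 27.1 in saline and np.float64(10.001), 6.13 and 9.59 in naive libraries. Saline replicate 1 fell within the naive range, and the other groups lay apart. Its log2 fold change was 1.57 ± 0.35 in injury against saline (adjusted p = 0.0379) and 3.72 ± 0.39 in needling against naive muscle (adjusted p = 4.93e-05). The last is close to that of Cd68, although Laptm5 is counted here with the ubiquitous members, as it is not among those the rule sets apart.

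Cd63, a tetraspanin of late endosomes and secreted vesicles, stood at 295, 374 and 257 CPM in needling, 199.6, 302 and 179 in injury, 155, 176 and 154 in saline and 175, 145 and 184 in naive libraries. The log2 fold change was 0.88 ± 0.19 in needling against naive muscle (adjusted p = 0.00279), and injury overlapped both needling and naive. Lamp2, one of the main membrane glycoproteins, stood at 143, 173 and 140.5 CPM in needling, 136, 143 and 124 in injury, 108, 119 and 115 in saline and 95.3, 98.1 and 116 in naive libraries. It rose by a log2 fold change of 0.56 ± 0.12 in needling against naive (adjusted p = 0.00194) and of 0.38 ± 0.12 in injury against naive muscle (adjusted p = 0.0389). The injury call was lost without injury replicate 1 or 2, or without naive replicate 1 or 2, at adjusted p of 0.0717 to 0.137. Lamp1, its paralogue, had 542, 519 and 493 CPM in needling and 402, 517 and 422 in naive libraries, which overlapped, and its log2 fold change of 0.21 ± 0.12 was not called (adjusted p = 0.185). Scarb2, the receptor that carries glucocerebrosidase to the lysosome, and the calcium channel gene Mcoln1 had log2 fold changes of 0.04 ± 0.11 and 0.02 ± 0.11 in needling against naive muscle, neither called.

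Of the 5 proton pump genes counted apart from Atp6v0d2, Atp6v1a alone was called in every comparison of a bupivacaine group with saline or naive muscle. It stood at 77.3, 90.4 and 62.8 CPM in needling, 57.3, 55.0 and 42.7 in injury, 27.1, 34.5 and 33.2 in saline and 30.6, 26.5 and 30.5 in naive libraries. The bupivacaine groups lay apart from each other and from saline and naive, which overlapped. Its log2 fold change was 0.71 ± 0.15 in injury against saline (adjusted p = 0.0244) and 1.40 ± 0.15 in needling against naive muscle (adjusted p = 2.13e-05). Atp6v0d1 stood at 44.4, 50.8 and 43.3 CPM in needling, 40.0, 43.3 and 37.8 in injury, 35.0, 33.7 and 36.7 in saline and 36.8, 32.9 and 28.7 in naive libraries, with a log2 fold change of 0.50 ± 0.11 in needling against naive muscle (adjusted p = 0.00276). Atp6v0c, the proton-carrying ring subunit, rose in needling against saline muscle alone, by 0.44 ± 0.14 (adjusted p = 0.0316), a call lost without any saline library or without needling replicate 1 or 2 (adjusted p of 0.0606 to 0.145). Its sign in saline against naive muscle, and in injury against naive muscle, turned when 1 library was left out, and neither was called. Atp6v1b2 and the accessory gene Atp6ap1 were called in no comparison.

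Tfeb (chromosome 17, 47737030 to 47792419, plus strand, ENSMUSG00000023990), the transcription factor of the list, ran against most of the hydrolases, though not against Gaa and Ctsf. It stood at 79.8, 62.2 and 84.1 CPM in needling, 74.8, 79.5 and 97.6 in injury, 92.8, 99.8 and 90.7 in saline and 117, 107 and 92.5 in naive libraries. Needling lay below all saline and naive libraries, and injury overlapped every other group. It fell by 0.48 ± 0.14 on the log2 scale in needling against naive muscle (adjusted p = 0.013). Without needling replicate 2 this was -0.36 (adjusted p = 0.0612) and without naive replicate 1 it was -0.39 (adjusted p = 0.0521), neither called. Its log2 fold changes of -0.17 ± 0.14 in injury against saline (adjusted p = 0.612) and -0.16 ± 0.14 in needling against injury muscle (adjusted p = 0.603) were not called either. Its relative Tfe3, which binds the same core, was no member and rose by 0.72 ± 0.14 in needling against naive muscle (adjusted p = 0.00111), with 21.4 ± 3.65 CPM in needling and 13.1 ± 1.62 CPM in naive muscle (SD, n = 3 each). Tfec, a relative known from macrophages, averaged 3.38 ± 0.62 CPM in needling and 1.18 ± 0.39 CPM in injury muscle. In saline and naive muscle it averaged 0.261 ± 0.038 and 0.157 ± 0.138 CPM. Like Atp6v0d2, Tfec passed the filter on low counts only through the bupivacaine libraries, where it was high. Its call in needling against naive muscle (higher, adjusted p = 1.62e-05) is thus a description and is given without a fold.

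**Figure D4:**
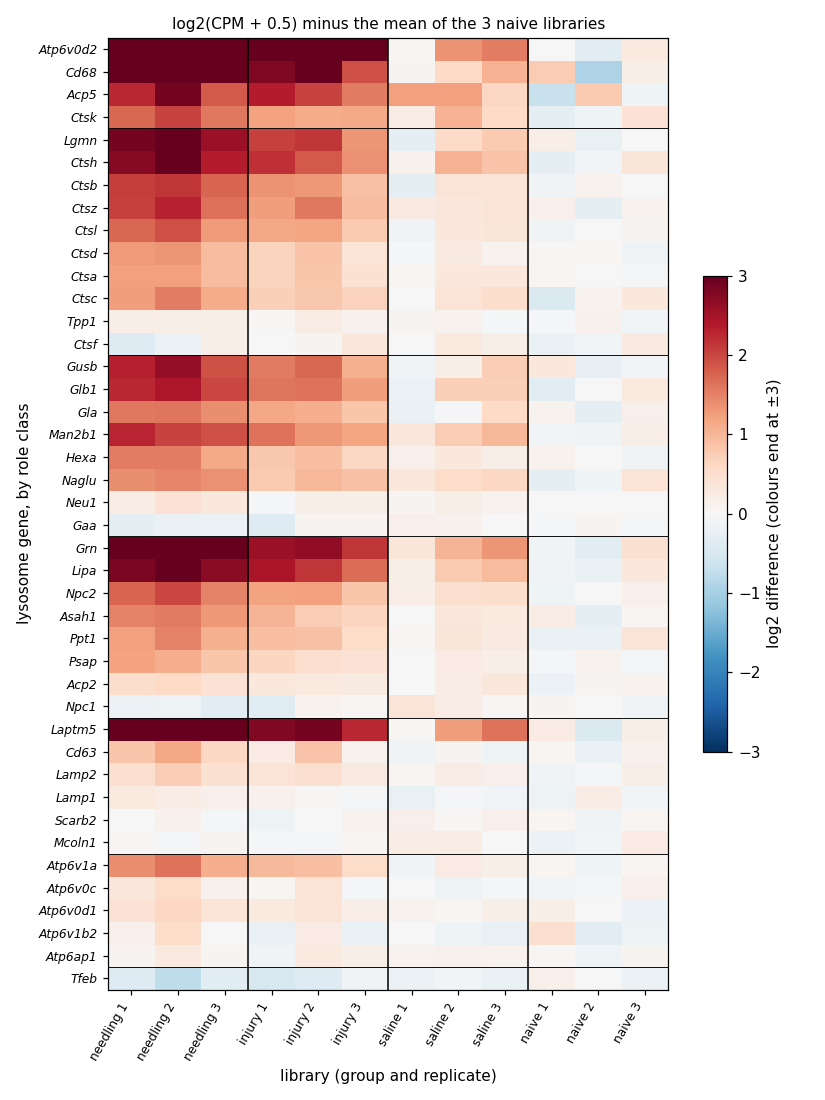
Log2(CPM + 0.5) of the 42 members (rows, by role) in each of the 12 libraries (columns), minus the mean of the 3 naive libraries; red is higher and blue lower than naive, and colours end at 3 either way. Most members are lowest in naive and highest in needling libraries, and Tfeb, Gaa and Npc1 are among those that are not.

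Levels of different genes were compared on the FPKM scale, which divides by length. Psap, the precursor of the saposins that assist lipid hydrolases, had the highest level in every group, 775 FPKM in needling, 535 in injury, 411 in saline and 372 in naive muscle. In naive muscle Psap, Lamp1, Ctsd and Gaa were the 4 highest and held 62.0% of the members' summed FPKM, and the same 4 held 51.8% in needling, 54.9% in injury and 60.3% in saline muscle. Gaa ranked 11 of 42 in needling and 4 in naive muscle, while Lgmn ranked 5 in needling and 14 in naive, and Grn 8 and 24. Cd68 ranked 10 in needling and 27 in naive muscle, and Laptm5 16 and 37. Atp6v0d2 and Acp5 stayed among the lowest in all groups. The members' summed CPM was 2.09 times as high in needling as in naive muscle, 1.47 times as high in injury as in naive and 1.09 times as high in saline as in naive muscle.

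Needling against injury muscle asks what acupuncture added to bupivacaine. In the 12-library edgeR fit no member was called, the smallest adjusted p being 0.105, for Hexa, and no gene of the 15715 was called either. At an unadjusted p under 0.05 stood 27 of the 42 members, and 15.6% of all genes. All needling libraries lay above all injury libraries in 27 members, where 15.6% of all genes did so, and none lay wholly below. The log2 estimate was above 0 in 38 members, where it was in 51.3% of all genes, with examples of 1.06 ± 0.42 for Cd68 (adjusted p = 0.268), 1.01 ± 0.34 for Laptm5 (adjusted p = 0.195), 0.96 ± 0.26 for Grn (adjusted p = 0.133) and 0.64 ± 0.12 for Hexa (adjusted p = 0.105). DESeq2 called 19 members, with 3.92% of all genes tested called.

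Injury and needling libraries of the same number deviated together over all genes, with correlations of 0.238, 0.485 and 0.422, although the labels give no origin for such a pairing. In a fit of these 6 libraries with the replicate number as a block, which leaves 2 residual degrees of freedom, 27 members rose and 1, Ctsf, fell in needling against injury muscle, where 12.8% of all genes rose and 7.74% fell. By role, these were 3 of the 4 macrophage-type genes, 8 of 10 proteases, 6 of 8 glycosidases, 6 of 8 lipid genes and cofactors, 2 of 6 membrane proteins (Cd63 and Laptm5) and 2 of 5 pump genes (Atp6v1a and Atp6v1b2). The blocked log2 fold change was 1.06 ± 0.08 for Cd68 (adjusted p = 7.14e-05), 0.74 ± 0.12 for Atp6v0d2 (adjusted p = 0.00219), 0.62 ± 0.11 for Ctsk (adjusted p = 0.00259) and 0.34 ± 0.18 for Acp5 (adjusted p = 0.208). Among ubiquitous members it was 0.997 ± 0.08 for Laptm5 (adjusted p = 7.69e-05), 0.82 ± 0.07 for Gusb (adjusted p = 8.76e-05) and 0.94 ± 0.08 for Grn (adjusted p = 9.98e-05). Ctsf fell by 0.30 ± 0.08 (adjusted p = 0.0247). With the block for the bupivacaine libraries inside the fit of 12, 11 members rose, where 2.26% of all genes did. With a replicate block over all 12 libraries, no member and 0% of all genes were called. The pairing was judged from these same data, so the blocked calls hold only if the libraries were in fact paired. The macrophage markers had a sum 2.04 times as high in needling as in injury muscle, against 1.88 times for the macrophage-type and 1.41 times for the ubiquitous members. These sums lean on their highest genes, such as Lyz2, Cd68 and Psap. The part of macrophages in the difference was not tested.

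Injury against saline muscle asks what bupivacaine added to an injection. All injury libraries lay above all saline libraries in 29 members, where 14.1% of all genes did so. The 17 calls had adjusted p-values from 0.0151 to 0.0495, close under the threshold, and Man2b1, the lysosomal alpha-mannosidase, missed it at 0.0513. Left-out libraries moved the counts widely. No member was called when injury replicate 1, injury replicate 2 or saline replicate 2 was left out, fits in which 0% of all genes tested were called too. With saline replicate 1 left out 5 members and 0.638% of all genes were called, with saline replicate 3 left out 14 members and 2.61%, and with injury replicate 3 left out 21 members and 6.63%, so the count of all genes moved with that of the members. Sizes moved less, the log2 fold change of Cd68 lying between 1.84 and 2.41 and that of Atp6v0d2 between 2.60 and 3.54 over these 6 fits.

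Saline against naive muscle asks what an injection alone did. No member was called by edgeR, the smallest adjusted p being 0.26, for Man2b1 at 0.74 ± 0.18, with 20.1, 27.4 and 32.3 CPM in saline and 14.9, 14.6 and 18.2 CPM in naive libraries, which do not overlap. At an unadjusted p under 0.05 stood 10 of the 42 members, and 11.8% of all genes, and all saline libraries lay above all naive libraries in 7 members, where 9.53% of all genes did so. The estimate was above 0 in 37 members, where it was in 52.2% of all genes. DESeq2 called 3 members, with 1.24% of all genes called. Without saline replicate 1, Laptm5 was called, at 1.49 ± 0.24 (adjusted p = 0.0439), among 0.149% of all genes in that fit.

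A further 56 lysosome genes outside the list (other hydrolases, transporters, pump subunits and nutrient-sensing scaffold genes) were read in the same fit. In needling against naive muscle 29 rose and 8 fell, in needling against saline 26 rose and 3 fell, in injury against naive 18 rose and 1, Lamtor2, fell, and in injury against saline 5 rose and none fell, beside the shares of all genes given above. None was called in needling against injury or in saline against naive muscle in that fit. The blocked fit of the 6 needling and injury libraries called 23 higher and 2 lower in needling against injury muscle. In that blocked fit 12.8% of all genes were called higher and 7.74% lower. Those called in injury against saline included Tcirg1, the a3 pump subunit known from osteoclasts, at 1.67 ± 0.23 (adjusted p = 0.0151). Galns, a sulfatase, and Gm2a, a lipid-binding cofactor, were also among them. So was Tfec, whose call is a description for the reason given above. The median log2 fold change in needling against naive muscle was 0.35, against 1.34 in the 42 members. The 8 of 56 that fell there are a smaller share than the 18.8% of all genes that did. They were Smpd1, acid sphingomyelinase, Mfsd8, the pump subunits Atp6v0a2 and Atp6v1d, and Lamtor1, Lamtor2, Lamtor4 and Rragd. The last 4 belong to the scaffold that tethers the mTORC1 kinase complex to the lysosome. Lamtor1 (adjusted p = 0.0487) and Lamtor4 (adjusted p = 0.0467) were close under the threshold. Lamtor3 (adjusted p = 0.731) and Lamtor5 (adjusted p = 0.127) were not called. Rragd averaged 219 ± 45.4 CPM in needling and 386 ± 46.8 CPM in naive muscle (SD, n = 3 each), a log2 fold change of -0.81 ± 0.17 (adjusted p = 0.00182).

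Exons of 13 members (Acp5, Ctsa, Ctsb, Ctsd, Ctsl, Ctsz, Hexa, Glb1, Npc1, Ppt1, Acp2, Grn and Lamp1) overlap those of another annotated gene. In Ctsd, Ctsl and Glb1 an overlapping gene lies on the same strand, so strand could not tell those reads apart. The others overlap genes on the opposite strand only. Whether counting used strand is not given in the sources used here, so whether reads of those stretches were told apart is not known.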

How the data were processed

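RNA of 12 gastrocnemius samples was measured by RNA sequencing. Per the labels' protocols, RNA came from Trizol and libraries from a NEBNext Ultra kit. The submitters' processing notes name HISAT2 2.0.5 and the build mm10, while the sources used here do not give how reads were counted and filtered. The deposited table of counts holds whole-number counts per gene and library. The deposited FPKM values equal count over length on a scale that matched median-ratio size factors in 12934 genes. Of 54532 gene IDs, 54409 had a GENCODE M21 symbol.

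Counts were scaled by TMM and tested with edgeR 4.0.16 (limma 3.58.1, R 4.3.3): filter on low counts by group, robust quasi-likelihood fit of 12 libraries with a mean per group (8 residual degrees of freedom), 2-sided, Benjamini-Hochberg adjusted over all genes. CPM values are TMM-scaled, and mean log2 CPM used an offset of 0.5. The members and lists were chosen with earlier results of these data known. The genes named are the 4 macrophage-type members, Tfeb and, in each other role, those with the smallest p in injury against saline muscle. Others named beside them were chosen after their values were seen. For genes chosen by role, the injury against saline results are thus the values they were chosen by. Alternatives were the 2 groups alone, replicate blocks, no filter (30008 genes), median-ratio size factors, DESeq2 1.42.0, limma on log2(FPKM + 1) or log2(FPKM + 0.1), and each library left out. Whether replicate numbers pair samples was judged by whether every same-numbered pair's deviations correlated over 0.1, which the needling and injury libraries met. Scripts were tested on simulated data. Promoter windows are RefSeq's, on GRCm38.p6.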

Additional observations from a re-analysis of the deposited data

How the results depend on the processing

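Needling against injury, with no member called in the 12-library edgeR fit, gave 19 calls with DESeq2 (3.92% of all genes tested), 8 with no filter on low counts (0.673%), 28 with the replicate block over the 6 needling and injury libraries (20.6%), 11 with that block inside the fit of 12 (2.36%) and 1 with limma on log2(FPKM + 1) (1.03%), and none under the other settings run. It was 0 in the 6 fits that each left out a needling or injury library (0% to 0.00619%). Saline against naive gave 3 with DESeq2 (1.24%) and 0 to 1 with a library left out (0% to 0.149%). Injury against saline, with 17 calls, gave 0 with limma on log2(FPKM + 1) and no filter (0.0267%), 0 to 21 with a library left out (0% to 6.63%), and 13 with a replicate block over 12 libraries (3.09%). The pairing check was met by needling and injury libraries alone, and the block changed no other count by over 1.5 times. With a library left out, calls numbered 26 to 31 in needling against saline (15.5% to 28.4% of all genes tested). They numbered 24 to 27 in injury against naive (8.53% to 15.8%) and 30 to 33 in needling against naive muscle (30.8% to 39.7%). Among named genes, no called value changed direction, 894 recomputed ones stayed under the threshold and 100 missed it. Of these, Lamp2 and Atp6v0d1 in needling against saline muscle missed it in 3 of the 6 fits without a library each, at adjusted p of 0.0510 to 0.0852. With a library left out, the saline against naive log2 fold change lay between -0.14 and 0.0218 for Cd63 and between -0.11 and 0.0056 for Atp6v0c, and the injury against naive change of Atp6v0c between -0.0040 and 0.29. In injury against naive muscle the change of Npc1 lay between -0.16 and 0.069, that of Gaa between -0.14 and 0.074 and that of Lamp1 between -0.029 and 0.18. None of these was called. The causes were not tested. Low counts limit the fold of Atp6v0d2, and 3 libraries per group limit all tests.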
